A study of Arabidopsis thaliana with 6 samples.

Results

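The genes described here are the floral repressors of the FLC clade and SVP in Arabidopsis thaliana, a plant whose seedlings pass from leaf making to flowering in long days. They are 7 MADS-box genes chosen by their gene identifiers, without use of any measured value: FLC (AT5G10140), FLM or MAF1 (AT1G77080), MAF2 (AT5G65050), MAF3 (AT5G65060), MAF4 (AT5G65070), MAF5 (AT5G65080) and SVP (AT2G22540). All 7 were found among the 34262 features of the deposited table. Messenger RNA was sequenced from whole seedlings of the ecotype Col-0 on MS medium of 0.5 strength with 0.8% sucrose, in days of 16 h light and 8 h dark, and harvested at ZT12, which is 12 h after the lights came on. The wild type was compared with lhp1-3, a mutant of LHP1, the chromatin protein that reads Polycomb marks, and with importin123, which the series names an impα triple mutant, importin alpha being the adaptor that carries proteins into the nucleus. All 3 genotypes share the Col-0 background and had 2 libraries each, 6 in all, and by its title the series asked which genes are misregulated in both mutants. The labels give neither the age of the seedlings nor whether each library had its own planting. The p-values then measure only how far these libraries spread, and that spread may be technical.

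FLC and SVP proteins bind the florigen gene FT and the floral promoter gene SOC1 and hold them down. FLC is the repressor that winter cold silences, and the silencing is laid down by Polycomb complexes and kept with the help of LHP1. MAF1 (FLM) to MAF5 are close relatives of FLC, and splice forms of FLM and MAF2 join SVP in complexes that respond to ambient temperature. FRI, which drives FLC in winter annuals, is not functional in Col-0, so FLC is low there before any cold.

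The start of the coding sequence, which encodes the DNA-binding MADS domain, shows how close the 7 genes are. The 90 bases from the start of the domain, which in MAF5 begins at coding base 22, are given 5′ to 3′ from the RefSeq annotation of TAIR10.1, with capitals where a base differs from FLC.
FLC: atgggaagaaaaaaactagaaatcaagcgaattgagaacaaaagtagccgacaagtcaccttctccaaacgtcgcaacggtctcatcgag
FLM: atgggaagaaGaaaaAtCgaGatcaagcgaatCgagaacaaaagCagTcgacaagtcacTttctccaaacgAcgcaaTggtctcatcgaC
MAF2: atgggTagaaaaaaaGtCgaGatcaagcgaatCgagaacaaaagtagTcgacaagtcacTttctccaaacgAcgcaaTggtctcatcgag
MAF3: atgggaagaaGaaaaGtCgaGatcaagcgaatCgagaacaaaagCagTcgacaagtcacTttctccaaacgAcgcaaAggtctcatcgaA
MAF4: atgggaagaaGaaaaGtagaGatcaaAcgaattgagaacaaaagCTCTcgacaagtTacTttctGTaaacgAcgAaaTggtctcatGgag
MAF5: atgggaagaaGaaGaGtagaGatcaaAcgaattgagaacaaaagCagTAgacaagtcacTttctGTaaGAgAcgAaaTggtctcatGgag
SVP: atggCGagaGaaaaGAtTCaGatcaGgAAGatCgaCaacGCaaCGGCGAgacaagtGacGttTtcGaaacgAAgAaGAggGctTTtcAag
MAF2 differed from FLC at 9 of these bases, FLM and MAF3 at 11, MAF4 at 16, MAF5 at 17 and SVP at 35. Over the aligned coding sequences the closest pair was MAF2 and MAF3 with 93.6% identity, followed by FLM and MAF3 with 89.7%, FLM and MAF2 with 87.3%, and MAF4 and MAF5 with 85.7%. FLC shared 72.9% to 78.4% with the MAF genes and FLM, and SVP shared 64.7% to 67.5% with the other members. Of all stretches of 50 bases in a gene's span, 0.255% of those in FLM, 0.411% in MAF2 and 0.715% in MAF3 recurred in another member, and 0 in FLC, MAF4, MAF5 and SVP. Reads of that length could therefore be shared between FLM, MAF2 and MAF3 over a small part of each gene.

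In TAIR10.1 coordinates FLC lies at chr5:3173382-3179448 on the minus strand, FLM at chr1:28955483-28960234 and SVP at chr2:9579647-9583901, both on the plus strand. MAF2 (chr5:25982254-25986435), MAF3 (chr5:25987309-25991412), MAF4 (chr5:25992193-25996202) and MAF5 (chr5:25997504-26002619) follow each other on the plus strand of chromosome 5. The spans run from 4010 bp in MAF4 to 6067 bp in FLC, and exons cover 19.4% of the span of FLC, 24.0% of MAF5, 35.7% of MAF3, 41.0% of MAF4, 42.1% of SVP, 80.9% of MAF2 and 94.3% of FLM, where some annotated transcripts keep introns. Lengths in the deposited table equal the gene span less 1 bp, introns included, so intron reads count for every member.

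A short motif, TGCATG, known as the RY element and read by the repressors VAL1 and VAL2 in the first intron of FLC, was searched on both strands of each span. It stood in the first coding intron of all 6 FLC-clade genes, counted from the start of the gene. FLC had it at bases 583 and 616. The first match was at 695 of FLM, 638 of MAF2, 696 of MAF3, 605 of MAF4 and 588 of MAF5. That intron held 9 matches in MAF5, some overlapping, 2 each in FLC and FLM, and 1 each in MAF2, MAF3 and MAF4. The first such matches are shown as 30 bases in the sense of the gene, with the motif in capitals, because VAL1 and VAL2 are known to act through this motif at FLC.
FLC, base 583: aaaaaaaaattcTGCATGgatttcattatt
FLC, base 616: ttggaaaaaaatTGCATGtcattcacgatt
FLM: gaaatttaatatTGCATGttattcaagaaa
MAF2: aaattttaatatTGCATGtgattcaagaat
MAF3: aaaatttaatatTGCATGcgattcaagaat
MAF4: aaaatattatttCATGCActtggagagatt
MAF5: tctttttttcctTGCATGcacttcaagaga
In MAF4 the motif is on the reverse strand. The windows lie at chr5:3178849-3178878 and chr5:3178816-3178845 in FLC (minus strand), and on the plus strand at chr1:28956165-28956194 in FLM, chr5:25982879-25982908 in MAF2, chr5:25987992-25988021 in MAF3, chr5:25992785-25992814 in MAF4 and chr5:25998079-25998108 in MAF5. SVP had 6 matches, the first at base 3008, and 0 of them were in its first coding intron. The motif is frequent at this length. It stood in 67.7% of 31 first coding introns of 1959 to 3493 bp, the range of FLC, FLM, MAF2, MAF3 and MAF5, and in 25.8% of 3013 such introns of 403 to 3493 bp, a range that takes in MAF4 with 403 bp. Both sets include the introns of these clade genes themselves. A match is a description of the sequence, not a binding site.

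**Figure D1:**
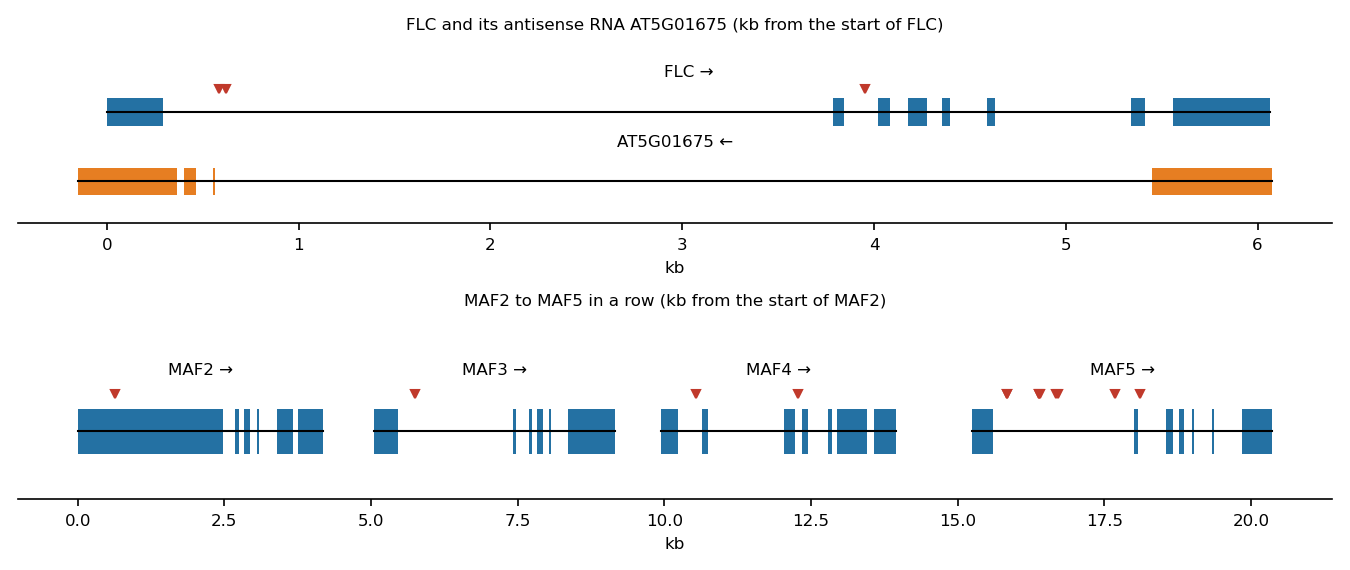
Gene maps of FLC with its antisense RNA (top) and of MAF2 to MAF5 (bottom), with kb from the start of FLC or MAF2 on the horizontal axis, exons as boxes (blue for the repressors, orange for AT5G01675), introns as lines, arrows for the direction of transcription and red triangles for TGCATG on either strand. The antisense RNA covers the whole of FLC, and each FLC-clade gene shown has a triangle shortly after its first exon or within it.

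The libraries held 70137936 to 95101867 counts. The genes that the genotypes are named for were lower in their own mutants, with importin123 read here as IMPA1, IMPA2 and IMPA3. LHP1 stood at 5.46 and 5.11 RPKM (reads scaled to gene length and library total) in Col-0 and at 3.87 and 3.21 in lhp1-3. IMPA1, IMPA2 and IMPA3 stood at 10.4 to 33.2 RPKM in Col-0 and at 2.03 to 4.16 in importin123. In lhp1-3 these 3 genes stood at 8.43 to 24.9 RPKM, each also below its Col-0 values. Genes with next to no reads in Col-0 had reads in every mutant library. The median RPKM of 2306 silent genes, called the floor below, stood at 0.206 and 0.248 in Col-0, 1.53 and 1.44 in lhp1-3, with 1.78 and 1.32 in importin123. Of all counts, 2.95% and 3.27% fell on chloroplast features in Col-0, against 13.7% to 18.7% in the mutants. Summed markers of the seedling's tissues, which were not tested, also differed. Summed over 7 green-shoot genes, RPKM reached 12357 and 12508 in Col-0, 7587 and 9132 in lhp1-3, with 5534 and 7065 in importin123. RBCS1A made up the largest share of that sum, and members of the list went both ways: after subtraction of the floor, 1 was called higher and 2 lower in lhp1-3, with 3 higher and 4 lower in importin123. LHCB1.1, a light-harvesting protein gene, rose in both (1.52 and 3.22). The 9 root genes summed to 69.2 to 79.1 RPKM in every library as deposited. Above the floor they summed to 77.2 and 70.5 in Col-0 but 53.2 to 62.5 in the mutants. PHT1;1 made up the largest share of that sum and was called lower in both mutants (-0.55 and -1.05). Members of this list also went both ways after subtraction. Of 7 tested, 1 was called higher and 1 lower in lhp1-3, with 1 higher and 2 lower in importin123. RHD6 rose in both (1.03 and 2.74), and the list medians were 0.33 and 0.41. Summed RPKM of 7 flower genes came to 2.07 and 2.56 in Col-0, 50.7 and 46.5 in lhp1-3, with 13.8 and 10.7 in importin123, where 6 of the 7 lay at or under 1.5 times the floor. Above the floor the flower genes summed to 0.627 and 0.824 in Col-0, 40.0 and 36.4 in lhp1-3, with 1.29 and 1.40 in importin123. For 7 seed genes the sums came to 181 and 227 in Col-0, 35.5 and 33.1 in lhp1-3, with 379 and 578 in importin123. SESA3 went against that sum in lhp1-3, where it was called higher on the deposited counts (1.79) and not after subtraction. In whole seedlings fewer cells of a type and less RNA per cell cannot be told apart.

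Each member was therefore compared on the counts as deposited and on counts from which the floor, spread over gene length, had been subtracted. A log2 fold change is given ± SE from edgeR's quasi-likelihood test with the 2 libraries per genotype, and a call needs a Benjamini-Hochberg adjusted p under 0.05 over all genes tested. Both mutants are compared with the same Col-0 libraries, so their values stand side by side and are not independent.

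**Figure D2:**
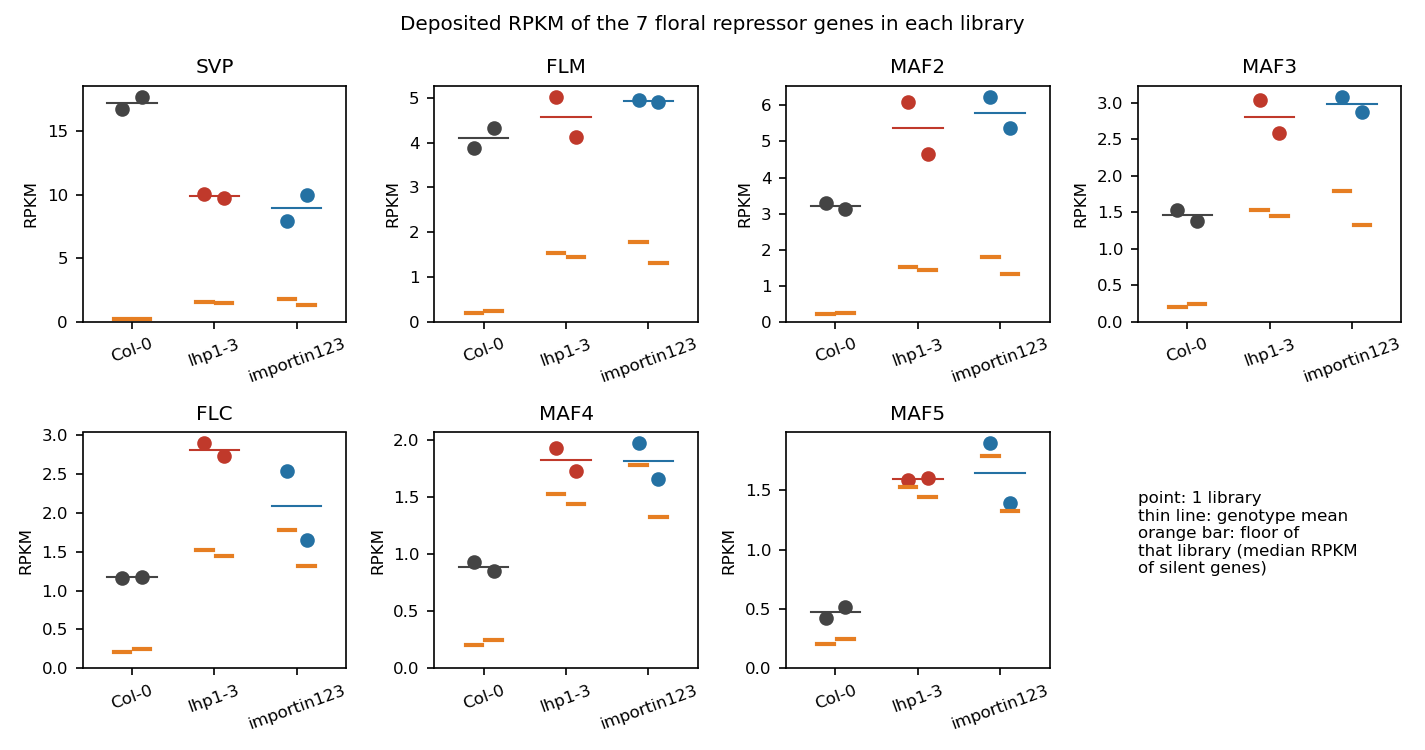
Deposited RPKM (vertical axis, one scale per gene) of the 7 genes in the libraries of the 3 genotypes (horizontal axis); each point is 1 library, the thin line is the genotype mean and the orange bar is the floor of that library. SVP stands at 16.8 and 17.7 in Col-0 and at 7.90 to 10.05 in the mutants, and MAF5 stands within 1.11 times the floor in all 4 mutant libraries.

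SVP, the most abundant of the 7 genes, fell in both mutants. Its deposited level was 16.8 and 17.7 RPKM in Col-0, 10.05 and 9.76 in lhp1-3, with 7.90 and 9.97 in importin123. All 4 mutant libraries lay below both Col-0 libraries. After subtraction of the floor, which made up 1.23% to 22.6% of its count, the level was 16.6 and 17.4 RPKM in Col-0, 8.52 and 8.31 in lhp1-3, with 6.12 and 8.65 in importin123, so that the mutant means were 0.495 and 0.434 of the Col-0 mean. The log2 fold change in lhp1-3 was -1.25 ± 0.15 on the deposited counts (adjusted p = 4.47e-06) and -0.74 ± 0.12 after subtraction (adjusted p = 0.00587). In importin123 it was -1.47 ± 0.15 (adjusted p = 6.61e-07) and -0.96 ± 0.12 (adjusted p = 0.00068). The folds are on edgeR's TMM scale, which differs from the ratio of RPKM.

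The fall of SVP in importin123 kept its call under all 17 alternatives on either set of counts, with values of -1.12 to -0.80 after subtraction. In lhp1-3 the subtracted call was lost without lhp1-3 replicate 1 (-0.71, adjusted p = 0.0724) and kept under the other 16 alternatives. The summed green-shoot markers were lower in the same libraries, although 1 of the 7 was called higher in lhp1-3 and 3 in importin123, and their part in the result was not tested.

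FLM, which in Col-0 stood next in level per kb, showed no call after subtraction. Its deposited level was 3.87 and 4.32 RPKM in Col-0, 5.02 and 4.12 in lhp1-3, with 4.94 and 4.91 in importin123. The lhp1-3 libraries overlapped Col-0, while the importin123 libraries were slightly above both. After subtraction FLM stood at 3.67 and 4.07 RPKM in Col-0, 3.495 and 2.67 in lhp1-3, with 3.15 and 3.59 in importin123, now with every mutant library below both Col-0 libraries. The TMM-scaled values after subtraction were 19.7 and 22.3 CPM (counts scaled to library total) in Col-0, 22.4 and 17.99 in lhp1-3, with 21.7 and 21.7 in importin123, where the genotypes overlap. The log2 fold change after subtraction was -0.05 ± 0.14 in lhp1-3 (adjusted p = 0.807) and 0.05 ± 0.14 in importin123 (adjusted p = 0.793). On the deposited counts FLM was called lower in lhp1-3 (-0.29 ± 0.13, adjusted p = 0.0449) and not called in importin123 (-0.27 ± 0.13, adjusted p = 0.0672). The deposited call was lost under 12 of 17 alternatives, among them each library left out except Col-0 replicate 1, and limma on log2 RPKM gave 0.12 and 0.15 in its place.

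MAF2, a repressor whose splicing changes with temperature, rose in both mutants after subtraction. Its deposited level was 3.30 and 3.12 RPKM in Col-0, 6.11 and 4.64 in lhp1-3, with 6.24 and 5.37 in importin123. With the floor subtracted the level was 3.10 and 2.88 RPKM in Col-0, 4.58 and 3.20 in lhp1-3, with 4.45 and 4.05 in importin123. All 4 mutant libraries were above both Col-0 libraries on either scale, lhp1-3 replicate 2 only narrowly after subtraction. The subtracted log2 fold change was 0.65 ± 0.17 in lhp1-3 (adjusted p = 0.0362) and 0.77 ± 0.17 in importin123 (adjusted p = 0.00897), which is 1.57-fold and 1.70-fold. On the deposited counts MAF2 was not called in lhp1-3 (0.29 ± 0.13, adjusted p = 0.057), though 9 of 17 alternatives called it (0.11 to 0.71 over all 17), and was called higher in importin123 (0.32 ± 0.13, adjusted p = 0.0386).

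The rise of MAF2 rests on few libraries. In lhp1-3 the subtracted call was lost without Col-0 replicate 1 (0.69, adjusted p = 0.0582), Col-0 replicate 2 (0.62, adjusted p = 0.12), lhp1-3 replicate 1 (0.42, adjusted p = 0.21) or importin123 replicate 1 or 2 (0.68 each, adjusted p = 0.0515 and 0.051), and with a floor 25% higher (0.65, adjusted p = 0.0588). The value of 0.42 is lower than the full one by over 1.5 times. In importin123 it was lost without importin123 replicate 1 (0.62, adjusted p = 0.0798) and kept under the other 16 alternatives. The deposited call in importin123 was lost with RLE size factors (0.15) and in DESeq2 (0.15), and it was lost too without Col-0 replicate 1, Col-0 replicate 2 or importin123 replicate 1.

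MAF3, next to MAF2 on the chromosome and its closest relative here, was called higher as deposited and was not called after subtraction. The deposited level was 1.53 and 1.38 RPKM in Col-0, 3.04 and 2.58 in lhp1-3, with 3.08 and 2.87 in importin123. Subtraction left 1.33 and 1.14 RPKM in Col-0, 1.51 and 1.14 in lhp1-3, with 1.297 and 1.54 in importin123, and both mutants then overlapped Col-0. On the TMM scale of the test the subtracted Col-0 libraries had 6.15 and 5.37 CPM, those of lhp1-3 8.36 and 6.61, and those of importin123 7.70 and 8.07, where all 4 mutant libraries lay above both of Col-0. The deposited log2 fold change was 0.50 ± 0.14 in both lhp1-3 (adjusted p = 0.00388) and importin123 (adjusted p = 0.0039). After subtraction the values were 0.38 ± 0.18 (adjusted p = 0.179) and 0.46 ± 0.18 (adjusted p = 0.0765). With a floor 25% lower MAF3 passed in both mutants (0.57 and 0.61). The floor amounted to 46.1% to 57.9% of its mutant counts.

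**Figure D3:**
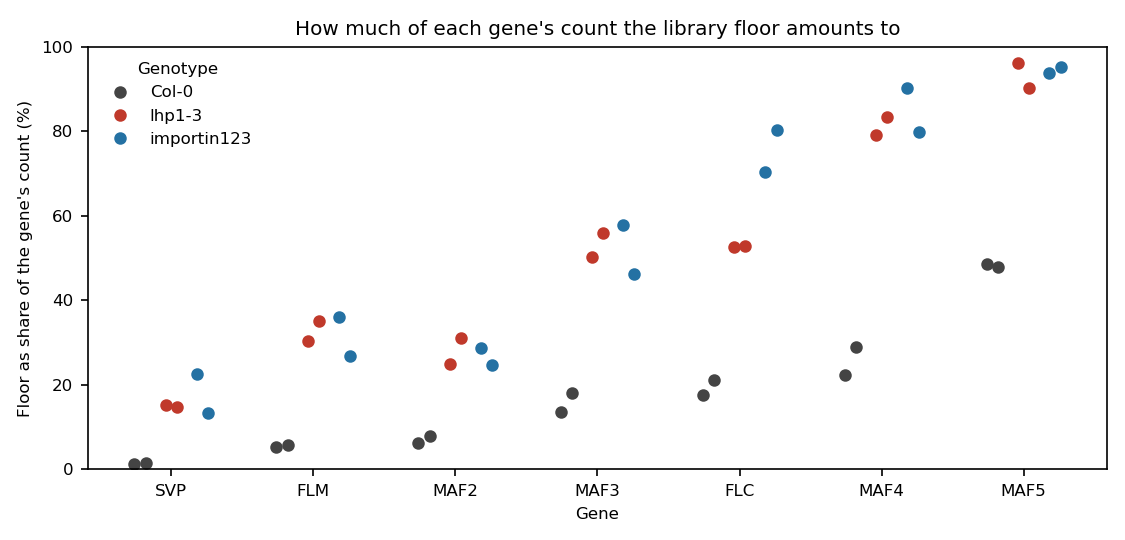
Share of each gene's count (vertical axis, %) that the library floor amounts to, for the 7 genes (horizontal axis) with 1 point per library, coloured by genotype. The share is 1.23% to 22.6% for SVP and 90.3% to 96.2% for MAF5 in the mutants.

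FLC stood near the floor in the mutants and was not among the genes kept for the main test after subtraction. FLC had counts of 558 and 676 in Col-0, 1596 and 1350 in lhp1-3, with 1079 and 714 in importin123, or 1.17 and 1.17, 2.90 and 2.73, and 2.54 and 1.65 RPKM. All mutant libraries were above Col-0 on this scale. The floor amounted to 17.7% and 21.2% of the FLC count in Col-0, 52.6% and 52.9% in lhp1-3, with 70.4% and 80.4% in importin123. Above the floor FLC had 0.961 and 0.924 RPKM in Col-0, 1.37 and 1.28 in lhp1-3, with 0.751 and 0.323 in importin123. On that scale, which is not the TMM scale of the tests, both lhp1-3 libraries were above Col-0 and both importin123 libraries were below it. For FLM and MAF3 the place of the mutant libraries against Col-0 changed between these scales. No TMM-scaled level per library after subtraction was computed for FLC, so the place of its single libraries on that scale is not known. The genotype folds of the wider test, given below, are on a TMM scale.

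On the deposited counts FLC was called higher in lhp1-3 (0.82 ± 0.16, adjusted p = 0.000424), under all 17 alternatives, and not in importin123 (0.30 ± 0.16, adjusted p = 0.105), where it was called without importin123 replicate 2 (0.60, adjusted p = 0.0035) and under 4 other alternatives. In a wider test of 26813 nuclear genes with at least 10 counts after subtraction, chosen to take in the members near the floor, FLC stood at 0.74 ± 0.27 in lhp1-3 (adjusted p = 0.0932) and -0.62 ± 0.33 in importin123 (adjusted p = 0.166). The difference between the mutants, importin123 against lhp1-3, was -1.36 ± 0.31 in that test (adjusted p = 0.0202) and -0.52 ± 0.16 on the deposited counts (adjusted p = 0.0604), where 7 of 17 alternatives called it. In the wider test it was lost without lhp1-3 replicate 1 (-1.33, adjusted p = 0.118) or lhp1-3 replicate 2 (-1.36, adjusted p = 0.0943). Its size moved to -2.16 without importin123 replicate 1 and to -0.80 without importin123 replicate 2, and was -0.93 or -2.69 with a floor 25% lower or higher. FLC in importin123 moved from -0.07 without importin123 replicate 2 to -1.43 without replicate 1, where it was called (adjusted p = 0.011), and it was also called with a floor 25% higher (-2.19, adjusted p = 0.0414). In lhp1-3 FLC was called without importin123 replicate 1 or 2 (0.74 each, adjusted p = 0.0217 and 0.0209) and with a floor 25% lower (0.82, adjusted p = 0.0182), 3 of 12 alternatives.

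FLC could not be told from its antisense RNA in these counts. AT5G01675, which RefSeq annotates as a natural antisense RNA at FLC on the plus strand, covers all 6067 bp of FLC and 163 bp more. It had counts of 558 and 678 in Col-0, 1627 and 1369 in lhp1-3, with 1111 and 736 in importin123. They exceeded those of FLC by 0 to 32 reads. Among 85 gene pairs on opposite strands that overlap each other by at least 90%, 81 (95.3%) had counts within 10% of each other, with a median ratio of 1.0056, so strand was in effect not used in counting. The value of FLC in each library is therefore the sum of both strands, introns included.

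MAF4 and MAF5 lay at or near the floor in the mutants. MAF4 stood at 0.928 and 0.855 RPKM in Col-0, 1.93 and 1.73 in lhp1-3, with 1.98 and 1.66 in importin123, of which 0.721 and 0.607, 0.402 and 0.287, and 0.192 and 0.334 RPKM were above the floor. The deposited libraries of both mutants were above Col-0, and after subtraction both were below it on the RPKM scale. MAF5 stood at 0.424 and 0.518 RPKM in Col-0, 1.59 and 1.60 in lhp1-3, with 1.90 and 1.39 in importin123, and in the mutants the floor amounted to 90.3% to 96.2% of its count. As deposited, MAF4 (0.59 ± 0.16 in lhp1-3, adjusted p = 0.00402, and 0.50 ± 0.16 in importin123, adjusted p = 0.0122) and MAF5 (1.303 ± 0.19, adjusted p = 2.39e-05, and 1.26 ± 0.19, adjusted p = 2.38e-05) were called higher in both mutants. MAF4 lost its importin123 call without Col-0 replicate 2 (0.45, adjusted p = 0.0562), with RLE size factors (0.32) and in DESeq2 (0.32), and MAF3 lost both of its deposited calls in DESeq2 (0.32 and 0.33).

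In the wider test after subtraction the signs of MAF4 and MAF5 turned. MAF4 was -0.69 ± 0.31 in lhp1-3 (adjusted p = 0.151) and -1.14 ± 0.35 in importin123 (adjusted p = 0.0333), a call lost with the replicate block (-1.14, adjusted p = 0.0515), without Col-0 replicate 1 (-1.08), Col-0 replicate 2 (-1.29) or importin123 replicate 1 (-0.86), with a floor taken from neighbouring silent genes (-1.38) and with the floor 25% lower (-0.14). MAF5 was -0.98 ± 0.54 (adjusted p = 0.228) and -1.25 ± 0.59 (adjusted p = 0.128). With a floor 25% lower MAF4 stood at 0.05 in lhp1-3, and MAF5 stood at 0.71 in lhp1-3 and 0.66 in importin123. With a floor 25% higher MAF4 went to -5.29 in lhp1-3 (adjusted p = 0.00741) and -7.81 in importin123, and MAF5 to -9.07 in both, with a call in importin123 (adjusted p = 0.0386). MAF5 was also called in importin123 when silent genes were chosen by Col-0 alone (-3.86, adjusted p = 0.0181). MAF5 in both mutants and MAF4 in lhp1-3 thus turned with the size of the floor, while MAF4 in importin123 stayed below 0 under the 12 alternatives run.

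**Figure D4:**
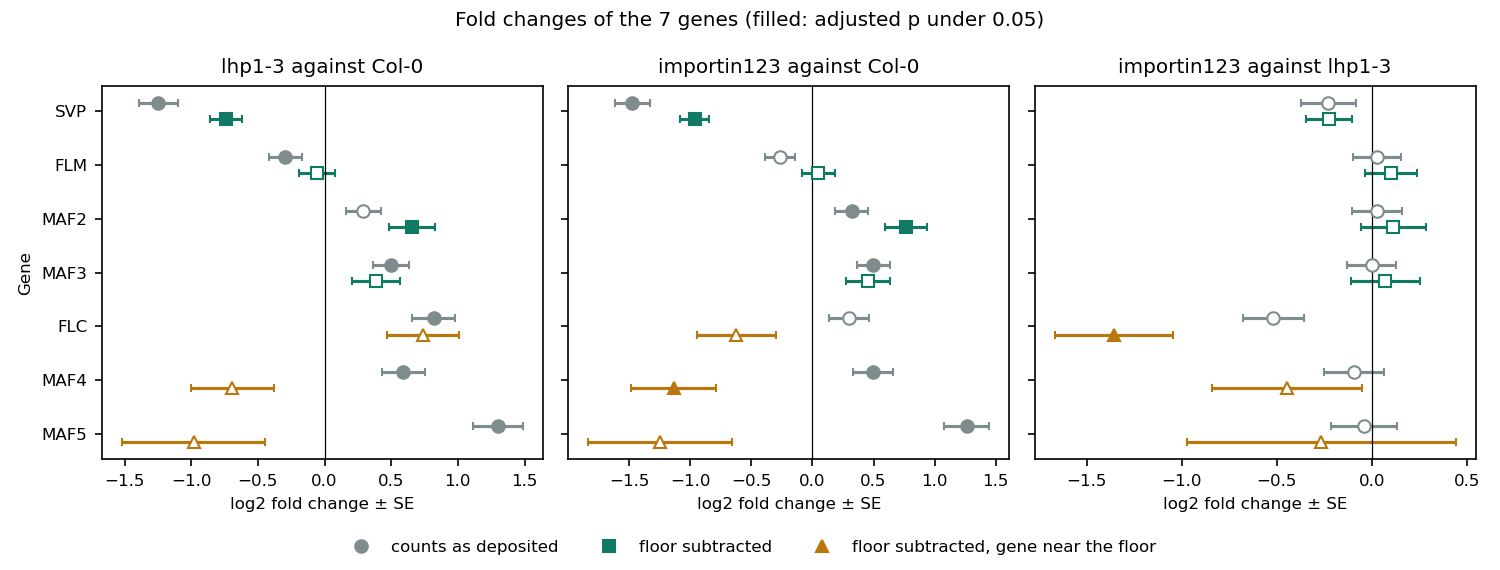
Log2 fold change ± SE (horizontal axis, one panel per comparison) of the 7 genes (vertical axis) from counts as deposited (circles), after floor subtraction (squares) and in the wider test for genes near the floor (triangles); filled symbols have an adjusted p under 0.05. SVP is filled below 0 on both sets of counts in both mutants, MAF2 is filled above 0 after subtraction, and MAF4 and MAF5 change side.

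Counted over the members, 4 of 7 were called higher and 2 lower in lhp1-3 on the deposited counts, beside 41.9% and 33.5% of the 33906 features tested. In importin123 4 were higher and 1 lower, beside 42.3% and 33.2%, and between the mutants 0 were called, beside 2.76% higher and 5.78% lower. At an unadjusted p under 0.05, FLC alone passed between the mutants, and with RLE size factors 1 member was called lower. The median feature stood at a log2 fold change of 0.16 in lhp1-3 and 0.20 in importin123. After subtraction 4 of the 7 members (SVP, FLM, MAF2 and MAF3) could be tested. Of these, 1 was higher and 1 lower in each mutant, beside 9.46% higher and 7.68% lower of 19621 genes in lhp1-3, and 19.9% higher and 22% lower in importin123. Between the mutants 0 of 4 were called by edgeR, at an unadjusted p under 0.05 as well, beside 9.41% higher and 13.5% lower. SVP (-0.23 ± 0.12, adjusted p = 0.213) passed between them only without importin123 replicate 2 (-0.41, adjusted p = 0.0492).

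Calls after subtraction moved with the length of the gene, a fact that touches every member because all 7 spans are long. In lhp1-3, 7.57% of tested genes of up to 1000 bp and 37.1% of those over 6200 bp were called higher, and 16.1% and 0.804% were called lower. In the class over 4000 and up to 6200 bp, which holds all 7 members, 19.8% were higher and 2.92% lower in lhp1-3 and 30.1% were higher and 14.5% lower in importin123. Fitted on genes of that class alone, an alternative chosen after seeing the data, SVP stood at -0.84 (adjusted p = 0.00116) and -1.04 (adjusted p = 0.000167), and MAF2 at 0.54 (adjusted p = 0.0358) and 0.70 (adjusted p = 0.00744). The part of gene length in the rise of MAF2 beyond this was not tested.

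**Figure D5:**
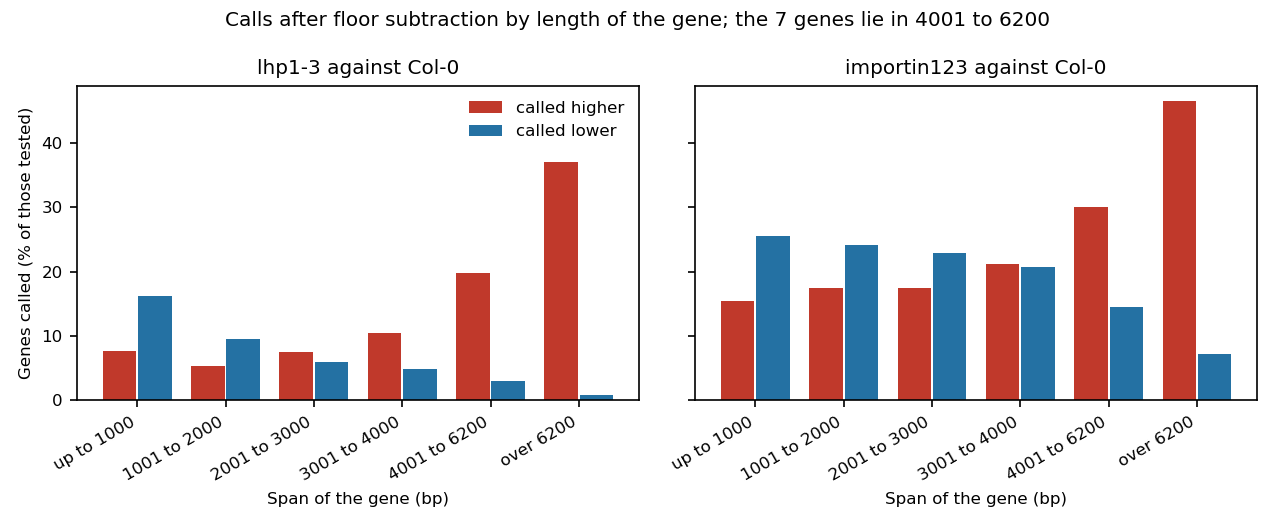
Share of tested genes called higher (red) or lower (blue) after floor subtraction (vertical axis, %) by gene span (horizontal axis, bp), in lhp1-3 (left) and importin123 (right) against Col-0. In lhp1-3 the share called higher goes from 7.57% in the shortest class to 37.1% in the longest, and the members fall in the class over 4000 and up to 6200 bp.

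Among the activators of FLC, 6 were called higher in both mutants after floor subtraction: PIE1, VIP4, EFS, ATX2, HUB1 and HUB2. After subtraction 6 of 24 tested activators (26 listed) were higher and 0 lower in lhp1-3, and 7 were higher and 2 lower in importin123. Over all tested genes 9.46% were higher and 7.68% lower in lhp1-3, and 19.9% and 22% in importin123, with larger shares higher among long genes as given above. The list had medians of 0.10 and 0.04 beside -0.029 and -0.0036 over all genes. On the deposited counts 7 of the 26 were higher and 10 lower in lhp1-3, beside 41.9% and 33.5% of all features. In importin123 7 were higher and 9 lower, beside 42.3% and 33.2%. Folds of this list are given after subtraction unless stated otherwise. PIE1, the SWR1-type remodeller that places H2A.Z at FLC, was 1.502 ± 0.18 in lhp1-3 (adjusted p = 0.0016) and 1.29 ± 0.18 in importin123. VIP4, a subunit of the Paf1 complex, was 1.28 ± 0.17 and 1.01 ± 0.17. EFS, the H3K36 methyltransferase of FLC chromatin, was 1.38 ± 0.20 and 1.02 ± 0.20, and lost the lhp1-3 call without lhp1-3 replicate 1 (1.21). PIE1 and EFS span 9153 and 9533 bp and VIP4 4092 bp. ATX2, a histone methyltransferase gene of 7780 bp, stood at 0.62 and 0.55. HUB1 (0.50 and 0.54) and HUB2 (0.77 and 0.68), which ubiquitinate H2B, span 6478 and 5697 bp. HUB1 passed only narrowly in lhp1-3 (adjusted p = 0.0498). On the deposited counts it was called in neither mutant (0.25, adjusted p = 0.0842, and 0.24, adjusted p = 0.0981). PIE1, EFS, ATX2 and HUB1 thus belong to the class over 6200 bp. Calls of a rise were most frequent there (37.1% in lhp1-3 and 46.6% in importin123). UBC2, an E2 enzyme of H2B ubiquitination with a span of 2258 bp, fell in importin123 (-0.56 ± 0.10, adjusted p = 0.0032). ARP6, another listed activator, with a span of 1933 bp, fell there too (-0.53 ± 0.13, adjusted p = 0.0147). FRI itself stood at -0.16 ± 0.17 and -0.18 ± 0.17, with no call (adjusted p = 0.557 and 0.421).

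The autonomous pathway, which keeps FLC low by RNA processing and chromatin change, held 2 genes called higher and 0 lower of 16 tested (17 listed) in lhp1-3, beside 9.46% and 7.68% of all tested genes. In importin123 1 was higher and 1 lower, beside 19.9% and 22%. These counts are after subtraction. On the deposited counts 3 of the 17 were higher and 8 lower in lhp1-3, beside 41.9% and 33.5% of all features. In importin123 2 were then higher and 10 lower, beside 42.3% and 33.2%. Folds below are after subtraction unless stated otherwise. REF6, an H3K27 demethylase of 5537 bp, rose in both (0.93 ± 0.13, adjusted p = 0.00349, and 0.64 ± 0.13, adjusted p = 0.00601). Its deposited value in importin123 was not called (0.24, adjusted p = 0.1). LD rose in lhp1-3 (0.95 ± 0.23) but not without Col-0 replicate 2 (0.86) or lhp1-3 replicate 1 (0.70). PCFS4, a factor of RNA 3′ end formation, fell in importin123 (-0.27 ± 0.09, adjusted p = 0.0446), a call lost when any of the 6 libraries was left out (-0.30 to -0.24). FCA, which promotes early polyadenylation of the antisense RNA of FLC, stood at -0.03 ± 0.14 and 0.13 ± 0.14, with no call (adjusted p = 0.915 and 0.469).

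Of the genes that silence FLC through Polycomb, 3 of 12 tested after subtraction (13 listed) were higher and 1 lower in lhp1-3. In importin123 4 were higher and 1 lower, beside the same shares of all tested genes (9.46% and 7.68%, then 19.9% and 22%). On the deposited counts 3 of the 13 were higher and 6 lower in lhp1-3, beside 41.9% and 33.5% of all features. In importin123 2 were then higher and 7 lower, beside 42.3% and 33.2%. Folds below are after subtraction unless stated otherwise. LHP1 was the one that fell in lhp1-3 after subtraction (-1.02 ± 0.15, adjusted p = 0.004) and stood at 0.04 ± 0.14 in importin123. The H3K27 methyltransferase genes CLF (0.76 ± 0.14 and 1.20 ± 0.14) and SWN (0.67 ± 0.11 and 0.55 ± 0.11) rose in both, with spans of 5295 and 5408 bp. CLF was no longer called in lhp1-3 when Col-0 replicate 2 (0.62) or lhp1-3 replicate 1 (0.73) was left out. SWN lost its lhp1-3 call without lhp1-3 replicate 1 (0.60). On the deposited counts SWN was called in neither mutant (0.24, adjusted p = 0.087, and 0.11, adjusted p = 0.426), while CLF was called higher in both. FIE, another gene of this list, fell in importin123 (-0.43 ± 0.11, adjusted p = 0.018). In lhp1-3 FIE was not called (-0.09 ± 0.11, adjusted p = 0.597). VAL1 (-0.24 ± 0.11 and -0.10 ± 0.11) and VAL2 (-0.10 ± 0.09 and -0.02 ± 0.09), which read the RY element shown above, were not called. VIN3, which cold induces to silence FLC, stood at 0.298 and 0.345 RPKM in Col-0 and 1.29 to 2.01 in the mutants, at the floor, and was not tested after subtraction.

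Genes that act under the repressors or beside them moved in both directions. After subtraction 6 of 16 tested genes (23 listed) were higher and 6 lower in lhp1-3, and 2 were higher and 5 lower in importin123. In the direct test of importin123 against lhp1-3, 6 were higher and 5 lower. The shares of all tested genes were 9.46% and 7.68% in lhp1-3, 19.9% and 22% in importin123, and 9.41% and 13.5% between the mutants. On the deposited counts 14 of the 23 were higher and 6 lower in lhp1-3, beside 41.9% and 33.5% of all features. In importin123 7 were then higher and 7 lower, beside 42.3% and 33.2%. Folds below are after subtraction. FT, the florigen gene that FLC and SVP repress, stood at 2.82 and 2.44 RPKM in Col-0, 12.7 and 9.54 in lhp1-3, with 2.52 and 3.19 in importin123. It rose in lhp1-3 (2.28 ± 0.31, adjusted p = 0.0054), a call lost without lhp1-3 replicate 1 (2.08, adjusted p = 0.0568), and had no call in importin123 (-0.64 ± 0.34, adjusted p = 0.171), where it was called without importin123 replicate 2 (-1.35, adjusted p = 0.0136). The difference between the mutants passed its own test (-2.92 ± 0.33, adjusted p = 0.0018). SOC1, the other direct target, varied as much within Col-0 (4.42 and 7.82 RPKM) as between genotypes and was not called in either mutant (0.45 ± 0.51, adjusted p = 0.59, and -0.27 ± 0.52, adjusted p = 0.708).

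SEP3, a floral organ gene that SVP keeps off in young tissue, stood at 0.422 and 0.845 RPKM in Col-0, 19.0 and 18.7 in lhp1-3, with 1.81 and 1.38 in importin123, which is at the floor. It rose in lhp1-3 by 5.65 ± 0.35 (adjusted p = 0.0004), beside the other flower markers. AGL24, a close relative of SVP that promotes flowering, stood at 1.54 and 2.002 RPKM in Col-0, 5.37 and 4.94 in lhp1-3, with 2.33 and 1.90 in importin123. AGL24 rose in lhp1-3 (1.52 ± 0.18, adjusted p = 0.0015) and lay too near the floor in importin123 for a fold to be given. Among other repressors, TOE1 (-1.003 ± 0.12, adjusted p = 0.0015) and SMZ (-1.37 ± 0.17, adjusted p = 0.0018), both AP2-like, fell in lhp1-3. TOE1 was not called in importin123 (0.05 ± 0.11, adjusted p = 0.749) and was higher there than in lhp1-3 (1.05 ± 0.12, adjusted p = 0.0007). SMZ fell in importin123 as well (-0.64 ± 0.16, adjusted p = 0.0143). TEM2 fell in both mutants (-0.88 ± 0.16, adjusted p = 0.0091, and -0.65 ± 0.16, adjusted p = 0.0127). How SMZ in importin123 and TEM2 fared under the alternatives is not given here. The part of the flower markers, summed above, in these changes was not tested.

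Profiles after subtraction over the 6 libraries were compared with those of 7982 genes with symbols. The likeness is the root mean square difference of log2 CPM, each gene centred on its own mean. Nearest to SVP were ACS7 (0.069), ATCSLA15 (0.081), PSBR (0.083), TRXF1 (0.090) and CRK22 (0.090). Nearest to MAF2 were LIG6 (0.073), VLN1 (0.077), NIK2 (0.082), MEB2 (0.086) and TBL30 (0.094), to MAF3 were GSL04 (0.034), CPK7 (0.048), DRP3B (0.056), Phox4 (0.057) and CHR8 (0.059), and to FLM were FCA (0.037), PAP27 (0.037), SLK1 (0.055), SYNC3 (0.055) and BRIZ1 (0.057).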

How the data were processed

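Whole seedlings were sampled at ZT12. Per the labels' protocols, TRIzol RNA was treated with DNase I and 500 ng entered poly(A) selection. The authors deposited counts and RPKM values for 34262 features in 6 libraries, grouped here by title. FastQC, HISAT2, SAMtools, bedtools, edgeR and the TAIR10 build are named, per the submitters' processing notes. The labels and notes used here give no versions, settings or strandedness. Of the features, 32548 matched the RefSeq annotation of TAIR10.1, and 99.9% of these had the deposited length of the whole gene span, so sequences and coordinates are given for TAIR10.1. The deposited RPKM values were used for levels, the floor and limma.

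Counts were tested with edgeR 4.0.16 in R 4.3.3 (TMM, filterByExpr, robust quasi-likelihood test, 6 libraries, Benjamini-Hochberg). SE is the absolute log2 fold change over the square root of F. For each library the floor was the median RPKM of 2306 silent genes, taken as the bottom 10% by level among nuclear protein-coding genes spanning 1000 bp or more. It was scaled by gene length and subtracted from the counts. A gene was tested if its mean RPKM reached 2 times the mean floor or more and its mean subtracted count reached 10, a filter that 19623 genes met. A subtracted fold of a listed gene is printed only if its level minus the floor was 0.5 of the floor or more in both genotypes. Over 26258 features averaging at least 100 counts, the 2 libraries of a genotype spread beyond counting alone (chi-square per degree of freedom 27.5 to 66.3). Members near the floor after subtraction were not compared in this way. The fits were run on simulated data in which the floor subtracted was the one added, so an error in the floor's size was not tested there. Alternatives covered scaling, DESeq2 1.42.0, limma 3.58.1, filters, the floor and each library left out. Named genes were all members, up to 6 called genes per list and comparison by adjusted p, and LHP1, FT, SOC1, AGL24, CLF, FCA and VIN3. FRI, VAL1, VAL2 and the genes of the genotypes were added with their values in view, and some genes that the rule allowed are only counted. The members and lists were chosen with earlier results of these data known.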

Additional observations from a re-analysis of the deposited data

Results flagged for a closer look

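FLC differed between the mutants. In the wider test after floor subtraction, importin123 stood at a log2 fold change of -1.36 ± 0.31 against lhp1-3 (edgeR's quasi-likelihood test, Benjamini-Hochberg adjusted p = 0.0202), with both importin123 libraries below both lhp1-3 libraries. It was singled out because the 2 mutants' effects against the same Col-0 libraries differed by a test of the difference itself. The floor amounted to 52.6% to 80.4% of the FLC count in these 4 libraries, the reads of both strands were summed, and the part of either in the difference was not tested. On the deposited counts the difference was not called (-0.52 ± 0.16, adjusted p = 0.0604). In the wider test it lost its call without lhp1-3 replicate 1 (-1.33, adjusted p = 0.118) or replicate 2 (-1.36, adjusted p = 0.0943), and over the 12 alternatives its size ran from -2.69 to -0.80.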

How the results depend on the processing

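The fall of SVP in both mutants and its deposited and subtracted directions held under all 17 alternatives run, as did the rise of MAF2 after subtraction in direction. Calls lost are named beside the members and for some listed genes only. A listed gene without such a statement may have lost its call under an alternative. With 2 libraries per genotype, a left-out library leaves 1, which is then assumed to vary like the others. The correlation of same-numbered libraries' deviations was -0.092, -0.146 and 0.062 over 26258 features, so the numbers are not taken to pair the libraries. Fitting the replicate number as a block took FLM in lhp1-3 from a deposited call (-0.29) to adjusted p = 0.0559 and the count of members called lower there from 2 to 1. The cause of the changes listed here was not tested.

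On deposited counts, the members called lower in lhp1-3 went from 2 to 1 with the 4 libraries compared alone, a mean of at least 20 counts, nuclear features only, limma at either pseudocount, or genes over 4000 and up to 6200 bp only, and ranged from 1 to 2 with a library left out. In importin123 the members called higher went from 4 to 2 with RLE size factors and 1 with DESeq2, and ranged from 2 to 5 with a library left out. The members called lower there went from 1 to 2 with RLE and DESeq2 and ranged from 1 to 2. Between the mutants the members called lower went from 0 to 1 with RLE, the 4 libraries alone, nuclear features only or the length class, and ranged from 0 to 1. After subtraction, members called higher in lhp1-3 went from 1 to 3 with a floor 25% lower and 0 with one 25% higher, and those called higher or lower there ranged from 0 to 1 with a library left out. In importin123, members called higher went from 1 to 2 with the lower floor and ranged from 0 to 1, and those called lower went from 1 to 2 among all nuclear genes of at least 10 counts. Between the mutants, members called lower went from 0 to 1 with the lower floor and among all nuclear genes of at least 10 counts, and ranged from 0 to 1.

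The sign of a log2 fold change turned in these cases. limma on log2 RPKM, with pseudocounts of 1 and 0.1, gave FLM 0.12 and 0.15 in lhp1-3, 0.22 and 0.26 in importin123, and gave MAF5 0.022 and 0.028 between the mutants. With a floor 25% lower, FCA stood at 0.12 in lhp1-3, MAF4 at 0.052 and MAF5 at 0.71 in lhp1-3, and MAF5 at 0.66 in importin123. With a floor 25% higher FCA stood at -0.033 in importin123. In importin123, among all nuclear genes of at least 10 counts, FLM stood at -0.017 and LHP1 at -0.017, and in the length class FLM stood at -0.022. With a local floor MAF5 stood at 0.51 between the mutants. With 1 library left out, deposited values between the mutants ranged from -0.073 to 0.17 for FLM, -0.12 to 0.23 for MAF2, -0.19 to 0.13 for MAF5 and -0.45 to 0.017 for SVP. Subtracted values ranged from -0.21 to 0.094 for FLM and -0.20 to 0.13 for FCA in lhp1-3, and from -0.038 to 0.14 for FLM and -1.14 to 0.28 for SOC1 in importin123. Between the mutants they ranged from -0.045 to 0.28 for FLM, -0.091 to 0.36 for MAF2, -0.083 to 0.26 for MAF3 and, in the wider test, -0.84 to 0.58 for MAF5.

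Over all genes, subtracted calls in lhp1-3 ranged from 530 without lhp1-3 replicate 1 to 3746 with the lower floor for higher (1856 in the full fit), and from 294 to 2650 for lower (1506). In importin123 they ranged from 2333 to 5411 for higher (3898) and 2676 to 4974 for lower (4307), and between the mutants from 764 to 2447 (1847) and 1251 to 3215 (2644). Deposited calls lower than Col-0 fell from 11363 to 4190 in lhp1-3 and from 11244 to 4739 in importin123 with limma at a pseudocount of 0.1. Between the mutants, deposited calls ranged from 399 to 1428 for higher (937) and 620 to 2601 for lower (1960).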
